A study of Homo sapiens with 6 samples.

Results

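The metalloproteases, the related ADAM, ADAMTS and ADAMTS-like genes, and the inhibitors TIMP1 to TIMP4 and RECK were examined in the human bladder cancer line J82, an established line, as a family of 69 protein-coding genes among 57820 gene rows. Members were taken by gene symbol, by a rule that uses no measured value but was set with earlier results of these data known. RNA-seq had been performed on 3 libraries labelled control and 3 libraries labelled FOXC1 knockout (KO). As the methods of the study have it, a lentiviral CRISPR/Cas9 construct against FOXC1, a forkhead transcription factor gene, was given to the KO cells and a vector alone to the control cells, with puromycin selection. They speak of knockout clones, and the number of clones behind these libraries is not given in the sources used here. Nothing in the labels says that the 3 libraries of a group came from separate cultures, so the p-values below measure the spread between libraries, which may be technical.

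Matrix metalloproteinases (MMPs) are zinc-dependent enzymes, secreted or anchored in the membrane, that cut collagens, gelatins and other matrix proteins. They are made as inactive zymogens. ADAMs are membrane proteins, many of which release growth factors and receptors from the cell surface, while the secreted ADAMTS enzymes trim procollagens and cut proteoglycans and glycoproteins of the matrix. ADAMTS-like proteins lack the catalytic domain. TIMPs bind the active site of these enzymes, and RECK is an inhibitor held at the membrane. Invasion of bladder tumours through the basement membrane is a setting in which these enzymes have long been studied.

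The libraries held 18408134 to 25350908 counts. The transcript of FOXC1 itself did not fall. It was at 18.4, 16.9 and 19.3 CPM (read counts scaled to library size) in control replicates 1 to 3 and 24.1, 22.2 and 21.1 CPM in KO replicates 1 to 3, higher in each KO-labelled library (log2 fold change 0.30, edgeR adjusted p 0.0127). The transcript therefore does not check the labels by itself. The study checked its knockout clones at the level of FOXC1 protein, by Western blotting, which was not analysed here. Every direction below is that of the libraries labelled KO against those labelled control. Of 12 urothelial markers, KRT7, KRT8, KRT18 and KRT19 were abundant, PPARG and GATA3 were present, and the uroplakin genes, KRT5 and KRT20 were at or near 0. The summed level of this list was 3180 to 4000 CPM in control and 2490 to 2770 CPM in KO-labelled libraries, with 5 of 6 tested markers lower. Leukocyte markers summed to 3.85 to 4.33 CPM in control and 5.52 to 6.64 CPM in KO-labelled libraries, with CD3E and MS4A1 at 0. CD14 carried most of this rise (3.52 ± 0.47 to 5.39 ± 0.392 CPM, SD, n = 3 each, edgeR adjusted p 0.00129) and was called, 1 of 2 tested markers of the list, and PTPRC, which was not tested, had 10 and 23 counts. Endothelial markers summed to 0.59 to 0.902 CPM and 1.55 to 1.9 CPM, a change carried by CDH5. CDH5 had 1 count in the control group and 62 in the KO group. It was called higher (log2 fold change 5.6, edgeR adjusted p 8.6e-08), 1 of 2 tested markers of the list. PECAM1, also listed, was not matched. Stromal markers summed to 80.3 to 89.0 CPM and 83.9 to 94.2 CPM, with 0 of 3 tested called, although PDGFRB missed the call on fold change alone (log2 fold change 0.26, edgeR adjusted p 0.0401), and with PDGFRA and THY1 near 0. The part of these shifts in the results below was not tested, and in bulk RNA fewer cells of a type and less RNA per cell cannot be told apart.

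Of the 69 members, 41 had enough counts to be tested and 28 did not. A gene was called when its Benjamini-Hochberg adjusted p in edgeR was under 0.05 and its fold change over 1.3. By this rule 17 members were called, 9 lower and 8 higher in the KO-labelled libraries. This was 41.5% of the tested members, against a background of 16.0% of all 15647 tested genes and 16.4% of the 12722 tested protein-coding genes. DESeq2 called 8 members lower and 9 higher, 16 of them shared in direction with edgeR, against a background of 11.9% of genes called and 6.07% called higher. The lower members made up 22.0% of those tested (background 8.39%, or 8.3% of protein-coding genes) and the higher members 19.5% (background 7.57%, or 8.06%). Groups did not overlap for 24 of the 41 tested members (58.5%, background 41.3% of all and 44.1% of protein-coding genes), 11 lower (background 20.8% and 21.5%) and 13 higher (20.5% and 22.6%), among them all 17 called members. The median log2 fold change was -0.084 over the tested members and -0.001 over all tested genes, and the median size of the change, ignoring its sign, was 0.44 and 0.18. The tested members were also less abundant, with a median of 7.42 CPM against 20.8 CPM for all tested genes. The part of this lower level in the larger median size of change was not tested. MMP genes had 4 members higher and 1 lower of 11 tested, ADAMTS genes 2 higher and 6 lower of 12, ADAM genes 0 higher and 1 lower of 11, ADAMTS-like genes 0 called of 2, and the inhibitors 2 higher and 1 lower of 5. ADAM9, ADAM19 and ADAMTSL4 passed the adjusted p and missed the call on fold change alone. An unadjusted edgeR p under 0.05 alone was held by TIMP1, MMP15, MMP3, MMP1, ADAMTS5, ADAM23 and ADAMTS9. ADAMTS9 is named after its values were seen. Differences between families were not tested.

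**Figure D1:**
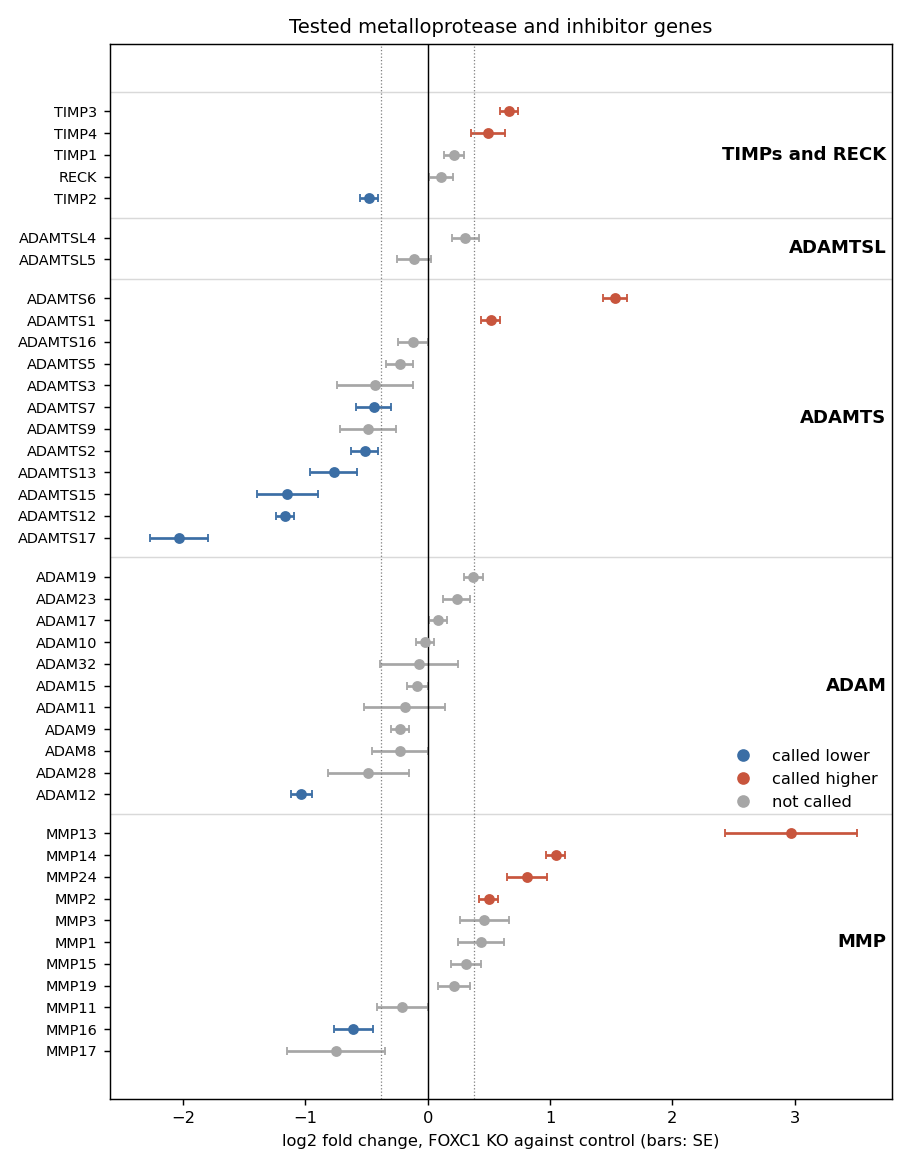
Log2 fold change of the 41 tested members, KO-labelled against control libraries, with SE, grouped by family. Blue points were called lower (9 genes), red points higher (8 genes) and grey points not called (24 genes); dotted lines mark the 1.3-fold threshold. Called ADAMTS genes lie mostly to the left and called MMP genes mostly to the right.

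To compare levels between genes, counts were divided by exonic length and scaled to the same total in each library (TPM). TIMP1 had the highest mean TPM of the family, 382 ± 31.5 (SD, n = 3) in control and 449 ± 43.6 (SD, n = 3) in KO-labelled libraries. TIMP2 (339 ± 35.9 and 247 ± 6.45 TPM), MMP2 (162 ± 20.2 and 232 ± 9.85 TPM) and ADAM9 (116 ± 10.7 and 100 ± 11.3 TPM) followed. TIMP3 and MMP14 came next. Inhibitors, a gelatinase and 1 ADAM led the transcript pool of the family. TIMP1 lay above TIMP2 in each library, with 418, 369 and 359 TPM against 378, 307 and 333 TPM in control and with 400, 483 and 463 TPM against 254, 241 and 246 TPM in KO-labelled libraries. This order depends on the exonic lengths used, 1446 bases for TIMP1 and 6209 for TIMP2. In CPM, without the length correction, TIMP2 lay above TIMP1 in each library. By TPM, ADAM9 lay above TIMP3 in every control library and below it in every library labelled KO (88.4 to 111 TPM against 120 to 135 TPM). This crossing depends on the exonic lengths used, 17704 bases for ADAM9 and 4597 for TIMP3. In CPM, without the length correction, ADAM9 lay above TIMP3 in every library (410 to 497 CPM against 144 to 155 CPM in KO-labelled libraries).

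The membrane-type enzyme MMP14, also known as MT1-MMP, cuts fibrillar collagen at the cell surface and activates the MMP2 zymogen. MMP14 (ENSG00000157227.8, GRCh37 chromosome 14, 23305769 to 23318250, plus strand) was at 62.0, 51.8 and 52.7 CPM in control replicates 1 to 3 and at 119, 120 and 105 CPM in KO replicates 1 to 3. Every KO-labelled library lay above every control library by a wide margin. This was a log2 fold change of 1.05 ± 0.080 (SE), for which edgeR gave an adjusted p of 2.47e-11. Over 13 alternatives it stayed between 1.0 and 1.12.

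MMP2, the main gelatinase of the cell line (ENSG00000087245.8, chromosome 16, 55423612 to 55540603, plus strand), was at 231, 177 and 185 CPM in control and 285, 288 and 264 CPM in KO-labelled libraries. The groups did not overlap, although control replicate 1 stood above the other two. This was a log2 fold change of 0.50 ± 0.081 (SE, edgeR adjusted p 2.15e-05), and it was between 0.42 and 0.61 over the alternatives.

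Of the other membrane-type enzymes, MMP24 rose and MMP16 fell. MMP24 was at 3.08, 2.05 and 2.71 CPM in control and 4.62, 4.76 and 4.34 CPM in KO-labelled libraries (log2 fold change 0.81, SE 0.16, with an edgeR adjusted p of 0.000226). Its gene span is crossed on the other strand by MMP24OS, which held 4907 counts in the control group against 188 for MMP24, so the share of reads given to MMP24 depends on how strand was treated in counting. MMP16 was at 4.15, 5.25 and 4.33 CPM in control and 2.50, 2.94 and 3.49 CPM in KO-labelled libraries (log2 fold change -0.61, SE 0.16, with an edgeR adjusted p of 0.00355). MMP15 (log2 fold change 0.31, adjusted p 0.0548) and MMP17 (log2 fold change -0.75, SE 0.40, adjusted p 0.163) did not pass the test and are named after their values were seen.

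The interstitial collagenases and the stromelysins MMP3 and MMP10 lie close together on chromosome 11, where 8 members occupy 102391239 to 102826461 (GRCh37). This stretch was nearly silent in J82. MMP8, MMP20 and MMP27 had 0 counts in every library, MMP7 and MMP10 had a few, and 3 of the 8 members (MMP1, MMP3 and MMP13) were tested. MMP13, collagenase 3 (ENSG00000137745.7), had 3, 1 and 1 counts in control and 9, 18 and 12 counts in KO-labelled libraries. The groups were apart, on few reads. The ratio of KO-labelled to control libraries was 8.4 (exact 95% interval 3.31 to 27.3, covering counting error only), and the adjusted p in edgeR was 8.78e-05. With so few control counts the fitted log2 fold change of 2.97 depends on the prior count. It ranged from 2.69 to 3.68 over the alternatives, and MMP13 was not tested where a mean of at least 50 counts was required or where libraries were thinned to the smallest. MMP1, collagenase 1, was at 1.87, 1.97 and 1.81 CPM in control and 3.26, 2.50 and 2.0 CPM in KO-labelled libraries, and MMP3, stromelysin 1, at 1.52, 1.19 and 1.46 CPM and 2.07, 1.79 and 1.91 CPM. Neither passed the adjusted test (log2 fold change 0.43 with adjusted p 0.0897, and 0.46 with adjusted p 0.0888, both in edgeR), although the groups did not overlap. MMP1 was called without KO replicate 3 (log2 fold change 0.59, adjusted p 0.0355).

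MMP9, the other gelatinase, was left out of the main test by the filter on low counts. It had 4, 3 and 0 counts in control and 18, 13 and 8 in KO-labelled libraries, so the groups did not overlap. The ratio of KO-labelled to control libraries was 6.0 (exact 95% interval 2.65 to 15.9). Without the filter edgeR gave a log2 fold change of 2.53 with an adjusted p of 6.69e-05, where 8.05% of all genes were called, and DESeq2 called it as well (log2 fold change 2.62), where 11.9% were called. MMP9 was at most 0.979 CPM in any library, against 177 CPM at least for MMP2.

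**Figure D2:**
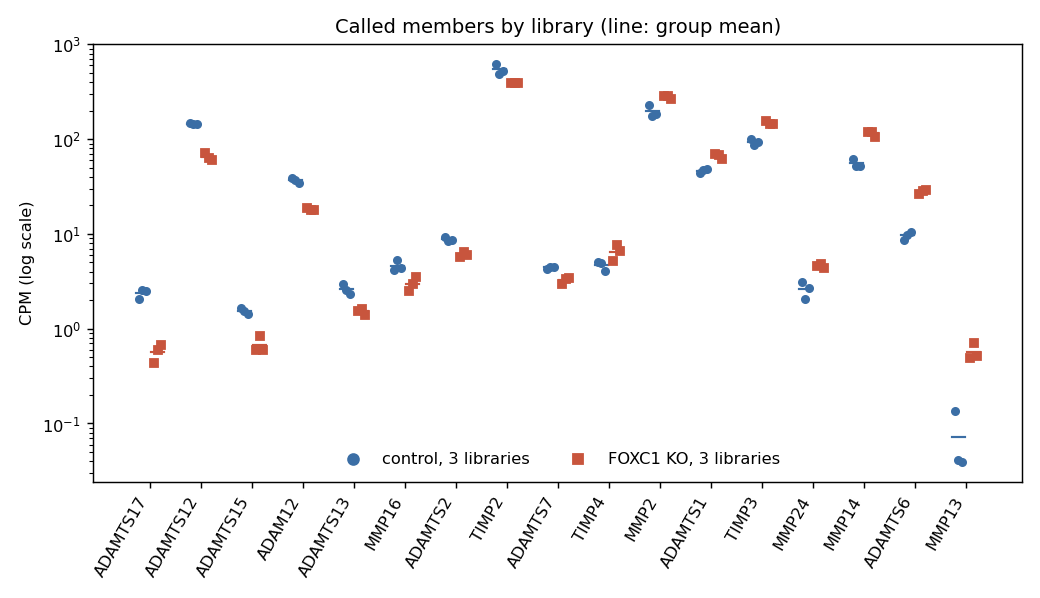
CPM on a log axis of the 17 called members in each library, ordered from the most reduced to the most increased, with control libraries as circles, KO-labelled libraries as squares and group means as lines. For each gene shown the 2 groups do not overlap, and the levels run from 0.0393 CPM (MMP13 in control replicate 3) to 623 CPM (TIMP2 in control replicate 1).

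The inhibitors did not move together. TIMP2 takes part in the activation of the MMP2 zymogen, since MMP14 with TIMP2 bound to it serves as the docking site for that zymogen, and at higher levels TIMP2 blocks MMP14. TIMP2 (ENSG00000035862.8, chromosome 17, 76849059 to 76921469, minus strand) was at 623, 491 and 525 CPM in control and 395, 392 and 387 CPM in KO-labelled libraries. All 3 KO-labelled libraries were lower and nearly equal, while control libraries spread more. This was a log2 fold change of -0.48 ± 0.077 (SE), for which edgeR gave an adjusted p of 1.66e-05. It lay between -0.56 and -0.38 over the alternatives.

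TIMP3, which is held in the matrix and also inhibits ADAM17 and several ADAMTS enzymes, went the other way. TIMP3 (ENSG00000100234.11, chromosome 22, 33197691 to 33259028, plus strand) was at 101, 86.9 and 92.8 CPM in control and 155, 144 and 145 CPM in KO-labelled libraries. The groups were well separated, with a log2 fold change of 0.66 ± 0.073 (SE) and an edgeR adjusted p of 3.67e-08. TIMP4 was at 5.0, 4.88 and 4.09 CPM in control and 5.22, 7.62 and 6.59 CPM in KO-labelled libraries. KO replicate 1 lay just above the highest control library, and the log2 fold change was 0.50 (SE 0.14) with an adjusted p of 0.00788 in edgeR. Without KO replicate 2 it was 0.36 with an adjusted p of 0.0912 and the call was lost. TIMP1, a soluble inhibitor of most secreted MMPs, was at 161, 137 and 132 CPM in control and 145, 183 and 170 CPM in KO-labelled libraries. These groups overlapped, and TIMP1 did not pass (log2 fold change 0.21, adjusted p 0.0508 in edgeR). RECK was at 12.8, 12.3 and 11.7 CPM in control and 14.1, 12.5 and 13.1 CPM in KO-labelled libraries, and it was not called either (log2 fold change 0.11, adjusted p 0.454). TIMP1, TIMP3 and TIMP4 each lie within a synapsin gene on the opposite strand, and these hosts (SYN1, SYN3 and SYN2) held 1, 3 and 33 counts in the control group, against 10295, 6745 and 335 for the TIMP genes.

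These opposite moves changed the proportions of the transcripts. The TPM of TIMP2 divided by that of MMP14 was 7.49, 7.05 and 7.41 in control replicates 1 to 3 and 2.48, 2.44 and 2.73 in KO replicates 1 to 3. The same ratio of TIMP2 to MMP2 was 2.05, 2.10 and 2.15 in control and 1.05, 1.03 and 1.11 in KO-labelled libraries. The groups did not overlap for either ratio. These ratios were chosen with the changes of the single genes in view and are given as a description. TIMP3 over TIMP2 was 0.219 to 0.239 in control and 0.496 to 0.530 in KO-labelled libraries.

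**Figure D3:**
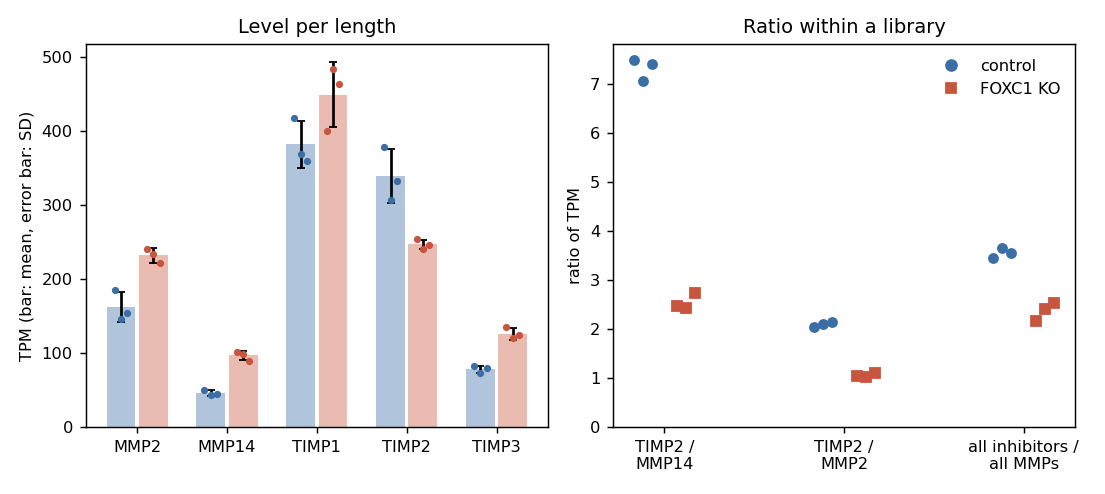
Left, TPM of MMP2, MMP14 and 3 TIMP genes, with bars for the mean, error bars for the SD and points for the 3 libraries of each group; right, ratios of TPM within each library. In KO-labelled libraries MMP2, MMP14 and TIMP3 lie higher and TIMP2 lower, and the ratio of TIMP2 to MMP14 lies between 2.44 and 2.73 against 7.05 to 7.49 in control.

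Summed over members, MMP transcripts reached 262, 212 and 224 TPM in control and 378, 364 and 340 TPM in KO-labelled libraries, a ratio of group means of 1.55. MMP2 and MMP14 made up 89.7% ± 0.147 (SD, n = 3) of this sum in control and 91.3% ± 0.381 in KO-labelled libraries, so the sum describes these 2 genes. The inhibitors summed to 903, 774 and 794 TPM in control and 816, 877 and 865 TPM in KO-labelled libraries, which overlap. Within that sum the share of TIMP2 was 41.2% ± 1.31 in control and 29.0% ± 1.88 in KO-labelled libraries, and that of TIMP1 46.4% ± 1.23 and 52.6% ± 3.17. The size of these shares depends on the exonic lengths used. The inhibitor sum divided by the MMP sum was 3.45 to 3.66 in control and 2.16 to 2.54 in KO-labelled libraries. ADAM transcripts summed to 252 ± 10.6 and 244 ± 14.1 TPM, with overlapping groups, and ADAMTS transcripts to 109 ± 3.87 and 91.6 ± 3.94 TPM (SD, n = 3 each). The lower ADAMTS sum rested on ADAMTS12, since the log2 ratio of KO-labelled to control libraries was -0.26 with it and 0.36 without it. Sums over members carry no test.

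**Figure D4:**
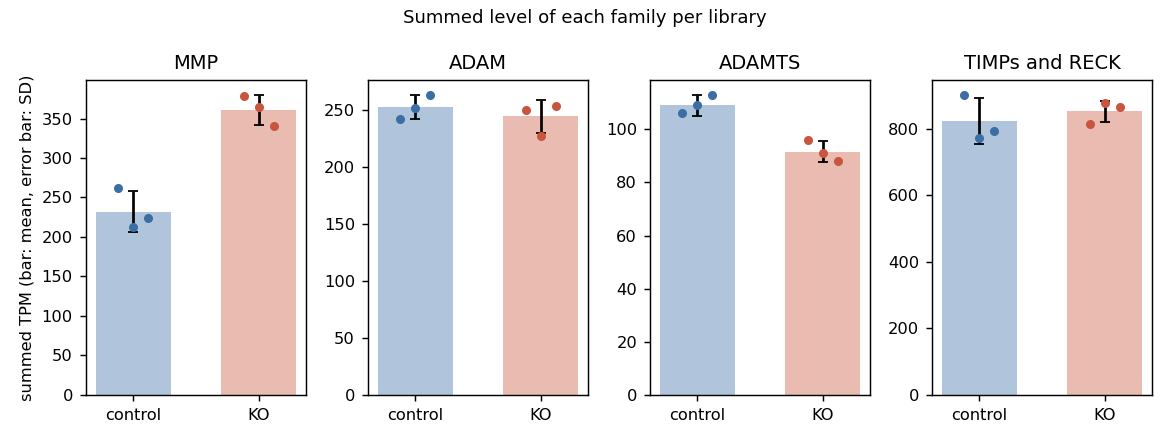
Summed TPM of the MMP, ADAM and ADAMTS genes and of the inhibitors in each library (points), with group means (bars) and SD (error bars); each panel has its own axis from 0. The MMP sum is higher in all KO-labelled libraries (340 to 378 against 212 to 262 TPM) and the ADAMTS sum, ADAMTS12 included, lower (88.0 to 95.8 against 106 to 113 TPM), while the other sums overlap.

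ADAMTS genes held the strongest falls. ADAMTS12, which cuts cartilage oligomeric matrix protein (COMP), was the leading ADAMTS transcript of the control cells. ADAMTS12 (ENSG00000151388.6, chromosome 5, 33523640 to 33892124, minus strand) was at 149, 144 and 146 CPM in control and 71.2, 63.8 and 60.4 CPM in KO-labelled libraries. The groups lay far apart, with a log2 fold change of -1.17 ± 0.074 (SE) and an edgeR adjusted p of 4.18e-13. ADAMTS17 (chromosome 15, 100511642 to 100882210, minus strand), a gene linked to fibrillin microfibrils and short stature, fell most steeply. It was at 2.05, 2.58 and 2.52 CPM in control and 0.435, 0.595 and 0.681 CPM in KO-labelled libraries, from 46 to 64 and from 8 to 16 counts. This was a log2 fold change of -2.03 ± 0.24 (SE), for which edgeR gave an adjusted p of 1.36e-07.

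ADAMTS15, a proteoglycan-cutting enzyme, fell on low counts, from 36 to 37 per control library to 11 to 21 per KO-labelled library (log2 fold change -1.15, SE 0.25, with an edgeR adjusted p of 0.000866). ADAMTS2, which removes the amino-terminal propeptide of fibrillar procollagens, was at 9.19, 8.36 and 8.66 CPM in control and 5.77, 6.47 and 6.04 CPM in KO-labelled libraries (log2 fold change -0.51, adjusted p 0.00101). ADAMTS13, the enzyme that trims von Willebrand factor, was at 2.95, 2.54 and 2.32 CPM in control and 1.52, 1.63 and 1.40 CPM in KO-labelled libraries (log2 fold change -0.77, adjusted p 0.00258). ADAMTS7, which like ADAMTS12 cuts COMP, was the weakest call (log2 fold change -0.44, SE 0.14, adjusted p 0.0196), and it was not called with DESeq2 (adjusted p 0.114), without control replicate 3 (0.0676) or without KO replicate 1 (0.0720). ADAMTS7 also overlaps MORF4L1 on the other strand (26684 control counts against 320) and has annotated near-copies, and ADAMTS13 overlaps REXO4 in the same manner (4481 against 187), so counts of both genes are uncertain.

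ADAMTS6 and ADAMTS1 rose. ADAMTS6, a relative of ADAMTS10 that acts on matrix microfibril components (ENSG00000049192.10, chromosome 5, 64444565 to 64777747, minus strand), was at 8.66, 9.76 and 10.5 CPM in control and 26.2, 28.3 and 29.1 CPM in KO-labelled libraries. No KO-labelled library came near a control library. This was a log2 fold change of 1.53 ± 0.097 (SE), for which edgeR gave an adjusted p of 3.84e-13. ADAMTS1, which cuts versican and aggrecan, was at 44.2, 47.3 and 48.6 CPM in control and 69.2, 68.8 and 62.2 CPM in KO-labelled libraries (log2 fold change 0.51, SE 0.077, adjusted p 6.28e-06). Its neighbour on chromosome 21, ADAMTS5, named for its place, lies 72512 bases away and did not pass the test (log2 fold change -0.23, adjusted p 0.108).

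By TPM, the leading ADAMTS transcript differed between the groups. ADAMTS12 made up 55.2%, 53.3% and 52.9% of the summed ADAMTS TPM in control and 30.9%, 27.8% and 28.2% in KO-labelled libraries. ADAMTS1 held 21.6% to 23.1% in control and 38.2% to 39.5% in KO-labelled libraries, more than ADAMTS12 in each of them. This order depends on the exonic lengths used (9605 bases for ADAMTS12 and 7303 for ADAMTS1). In CPM, without the length correction, the 2 genes were close in KO replicates 1 to 3. ADAMTS12 was at 71.2, 63.8 and 60.4 CPM there and ADAMTS1 at 69.2, 68.8 and 62.2 CPM. ADAMTS6 held 3.97% ± 0.331 and 14.0% ± 1.26 (SD, n = 3 each).

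**Figure D5:**
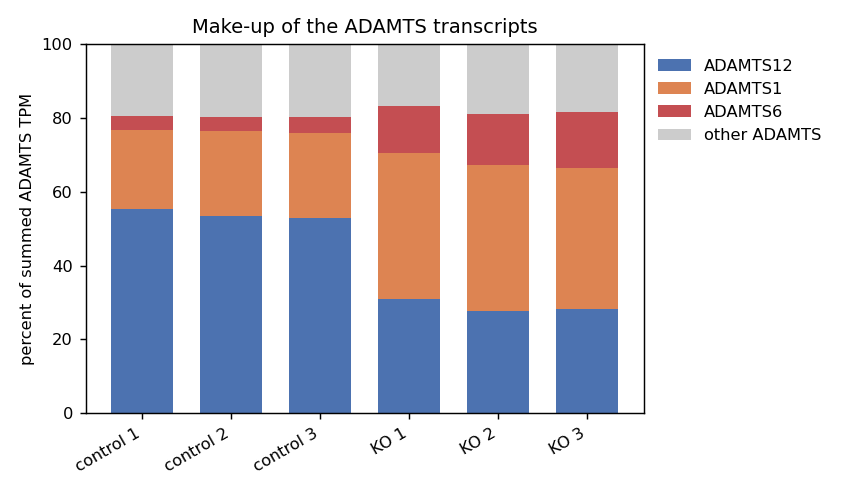
Share of the summed ADAMTS TPM held by ADAMTS12, ADAMTS1, ADAMTS6 and the remaining ADAMTS genes in each of the 6 libraries, in percent. ADAMTS12 holds 52.9% to 55.2% in control and 27.8% to 30.9% in KO-labelled libraries, where ADAMTS1 holds the largest named share.

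Among the ADAMs, 1 gene was called. ADAM12, a sheddase of heparin-binding EGF-like growth factor that also cuts insulin-like growth factor binding proteins (ENSG00000148848.10, chromosome 10, 127700950 to 128077046, minus strand), was at 39.1, 37.5 and 34.5 CPM in control and 18.6, 17.9 and 17.7 CPM in KO-labelled libraries. Both groups were tight and far apart, and the log2 fold change was -1.03 (SE 0.086, with an edgeR adjusted p of 1.32e-10). ADAM10 and ADAM17, the main sheddases of Notch receptors and of TNF, did not pass the test. ADAM10 was at 112, 119 and 122 CPM in control and 115, 106 and 127 CPM in KO-labelled libraries (log2 fold change -0.03, SE 0.075, adjusted p 0.835), and ADAM17 at 64.7, 71.3 and 70.6 CPM and 78.1, 67.4 and 73.8 CPM (log2 fold change 0.08, SE 0.076, adjusted p 0.446). Both pairs of groups overlapped. ADAM19, named after its values were seen, lay just short of a call, at 90.9, 78.3 and 86.1 CPM in control and 113, 114 and 104 CPM in KO-labelled libraries, with an adjusted p of 0.000281 and a log2 fold change of 0.37 against a threshold of 0.379. ADAM9, the most abundant ADAM, was at 489, 543 and 559 CPM in control and 453, 410 and 497 CPM in KO-labelled libraries, overlapping groups with an adjusted p of 0.0246 and a log2 fold change of -0.23, also under the threshold. ADAM23, which lacks catalytic activity, had a log2 fold change of 0.24 (adjusted p 0.108), and ADAMTSL4, the leading ADAMTS-like gene, of 0.31 (adjusted p 0.0357, under the fold threshold). ADAMTSL4 overlaps MCL1 on the other strand (25625 control counts against 661), so its counts are uncertain. MMP19, the most abundant of the remaining MMPs, was at 4.37 ± 0.275 CPM in control and 5.07 ± 0.183 CPM in KO-labelled libraries (SD, n = 3 each) and was not called (adjusted p 0.240).

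The 28 members left untested had at most 50 counts summed over all libraries, and 9 of them had 0 counts throughout. A count of 0 in a library allows up to 3 counts, so these genes are below detection at this depth rather than shown to be absent. MMP7, the most abundant matrilysin in these libraries, had 1 count in the control group and 6 in the KO group, a ratio of 6.46 with an exact 95% interval of 0.784 to 297. MMP25, named after its values were seen, had 35 and 15 counts (ratio 0.461, interval 0.234 to 0.867), and without the filter its adjusted p in edgeR was 0.111. MMP25 overlaps MMP25-AS1 on the other strand (214 and 189 counts in the control and KO groups), so its counts are uncertain.

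Sequences upstream of the genes are shown for members with opposite moves, 2 that fell (ADAMTS12 and ADAMTS13) and 2 that rose (ADAMTS6 and MMP14). RefSeq promoters (GRCh38.p14) were matched for 44 of the 69 members, 11 of them called. The 250 bases before the start were searched on both strands for a forkhead motif (GTAAACA), an AP-1 motif (TGANTCA) and a PEA3 motif (AGGAAG), which do not overlap each other in the sequences shown. The forkhead motif was present in 2.98% of 35116 promoters and in 2 of the 44 members, of which ADAMTS13 was called and MMP27 was not tested. The AP-1 motif was present in 6.57% of all promoters and in 4 members, of which ADAMTS12 was called, and the PEA3 motif in 28.7% and in 9 members, 3 of them called (ADAMTS12, ADAMTS13 and TIMP4). The windows of ADAMTS6 and MMP14 held none of the 3 motifs. No match was found either for ADAM12, ADAMTS2, ADAMTS7 and ADAMTS17, which fell, or for MMP24 and TIMP3, which rose. TIMP4, with its PEA3 match, also rose. The 2 fallen members shown were thus the only ones with a match among called lower members with a matched promoter. Sequences run 5′ to 3′ on the strand of the gene and end at the base before the start, with matches in capitals.
ADAMTS12, chr5:33891991-33892240, minus strand: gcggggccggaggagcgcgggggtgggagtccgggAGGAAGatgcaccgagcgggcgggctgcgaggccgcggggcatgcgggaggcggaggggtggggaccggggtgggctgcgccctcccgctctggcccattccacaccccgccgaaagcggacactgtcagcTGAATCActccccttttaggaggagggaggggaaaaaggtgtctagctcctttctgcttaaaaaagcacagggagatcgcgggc
ADAMTS13, chr9:133422117-133422366, plus strand: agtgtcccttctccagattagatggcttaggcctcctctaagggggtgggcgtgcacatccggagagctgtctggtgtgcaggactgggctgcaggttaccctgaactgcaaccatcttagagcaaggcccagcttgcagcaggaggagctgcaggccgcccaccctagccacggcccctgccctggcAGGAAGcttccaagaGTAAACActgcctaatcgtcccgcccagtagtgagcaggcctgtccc
ADAMTS6, chr5:65481921-65482170, minus strand: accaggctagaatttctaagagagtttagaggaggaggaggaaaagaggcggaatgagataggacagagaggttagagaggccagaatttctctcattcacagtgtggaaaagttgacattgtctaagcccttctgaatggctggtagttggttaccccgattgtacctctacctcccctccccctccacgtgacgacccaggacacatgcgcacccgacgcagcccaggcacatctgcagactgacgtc
MMP14, chr14:22836335-22836584, plus strand: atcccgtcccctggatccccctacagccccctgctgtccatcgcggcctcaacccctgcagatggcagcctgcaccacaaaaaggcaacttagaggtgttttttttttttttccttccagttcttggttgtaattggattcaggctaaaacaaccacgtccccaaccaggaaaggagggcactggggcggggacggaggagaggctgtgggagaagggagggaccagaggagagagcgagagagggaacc
In ADAMTS12 the AP-1 match begins 84 bases and the PEA3 match 215 bases before the start, and in ADAMTS13 the forkhead match begins 47 bases and the PEA3 match 62 bases before it. A match in these letters is a description and not a binding site.

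To place the family among the genes that act with it, 5 lists were counted against the background of 16.0%. Zymogen activation is driven in part by plasmin, which the urokinase system generates. Of 16 listed genes of this system and of proprotein convertases and cathepsins, 15 were matched and 10 tested, with 4 higher and 2 lower (60% called, median log2 fold change 0.18). PLAU, which encodes urokinase, was at 165, 154 and 159 CPM in control and 253, 264 and 243 CPM in KO-labelled libraries (log2 fold change 0.67, adjusted p 8.52e-09 in edgeR), and its receptor gene PLAUR at 39.1, 36.3 and 37.3 CPM and 64.5, 70.4 and 64.2 CPM (log2 fold change 0.82, adjusted p 1.62e-09). Other called genes of the list, named after their values were seen, were PLAT (log2 fold change 0.41), the protease inhibitor gene SERPINE2 (-0.71) and CTSB (-0.44).

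ADAM10 and ADAM17 need partners that carry them to the cell surface. Of 12 listed genes, among them partners of this kind, 3 of 12 tested were higher and 0 lower (25.0% called, median -0.05, with 1 gene lower at an unadjusted p under 0.05 and 0 lower by DESeq2). TSPAN14, a tetraspanin that escorts ADAM10, was at 86.6, 73.6 and 80.0 CPM in control and 139, 140 and 128 CPM in KO-labelled libraries (log2 fold change 0.76, adjusted p 3.65e-09 in edgeR). RHBDF2, the iRhom2 gene that serves ADAM17 (log2 fold change 0.45), and TSPAN15 (0.41) were the others, and without KO replicate 2 only 1 gene of this list was called. Among 22 genes for proteins that these sheddases release, 2 were higher and 3 lower of 18 tested (27.8% called, median -0.07). SDC1, a cell surface proteoglycan, rose from 119 ± 9.04 to 188 ± 12 CPM, HBEGF from 13.5 ± 0.491 to 19.9 ± 1.46 CPM, and BTC, the betacellulin gene, fell from 6.24 ± 0.242 to 3.44 ± 0.448 CPM (SD, n = 3 each, edgeR adjusted p 4.2e-08, 3.6e-05 and 1.88e-05).

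Matrix proteins that the members cut or process formed the list with the largest share called. Of 20 listed genes 14 were tested, with 6 higher and 3 lower (64.3% called, median 0.14). TNC, the tenascin C gene (log2 fold change 1.90), rose, and the fibrillar collagen genes COL1A2 (-1.34) and COL3A1 (-1.18) fell, while COL1A1, named after its value was seen, rose on a low level (2.21, from 2.68 to 12.3 CPM). Of 11 genes for other metalloproteases, 2 of 7 tested were higher and 0 lower (28.6% called, with 1 gene, CPE, lower at an edgeR adjusted p of 0.0296 and under the fold threshold). MME, which encodes neprilysin, a membrane-bound metallopeptidase, was at 125, 136 and 130 CPM in control and 278, 246 and 273 CPM in KO-labelled libraries (log2 fold change 1.03, adjusted p 2.63e-12 in edgeR), and PHEX rose on low levels (log2 fold change 1.36, adjusted p 0.000115).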

How the data were processed

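RNA-seq libraries of J82 cells (3 control, 3 FOXC1 KO, grouped by sample title) had been made from messenger RNA and sequenced as paired reads. The authors aligned reads to hg19 with STAR and deposited raw read counts per GENCODE version 19 gene from featureCounts; their strand and multi-mapping settings are not given in the sources used here. Of 57820 gene rows, 96.05% matched a GENCODE release 44 annotation of GRCh37, the same assembly, which gave symbols, exonic lengths and coordinates. MMP12 and MMP28 had no matching identifier and were not analysed here, and 1 ADAM gene and some genes of the lists are not reported by name here.

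Genes were kept with filterByExpr and tested by the quasi-likelihood F method of edgeR 4.0.16 in its robust form (R 4.3.3) with TMM normalization and group as the only term, over all 15647 tested genes. SEs were derived from the F statistic. CPM used TMM-scaled library sizes, and TPM used exonic lengths of release 44 and not those of the authors' annotation. Intervals of count ratios were exact (binomial) and, like the floor of 3 counts, cover counting error only. The fits were also tested on simulated data with known changes. Replicates differed by more than sampling noise (chi-square per gene 2.95 to 10.1). Alternatives were DESeq2 1.42.0, other scalings, filters, depths and thresholds, a replicate block, and leaving out each library. The design also foresaw a search of protein motifs, which was not run.

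Named members were every called one, the most abundant of each role group, and MMP1, MMP2, MMP9, MMP14, ADAM10, ADAM17, the TIMPs and RECK; of each pathway list, at most 3 called genes with the smallest p. Members and lists were chosen with earlier results of these data known.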

Additional observations from a re-analysis of the deposited data

How the results depend on the processing

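The fold threshold moved the counts most. Over 2-fold, 4 members were lower and 3 higher, against 321 and 316 of all tested genes. At that threshold no gene was called among the activators, the ADAM10 and ADAM17 partners or the shed substrates (0 in each direction). Of the matrix substrates 2 were higher and 2 lower, and 2 of the other metalloproteases were higher. With no fold threshold 10 members were lower and 10 higher, against 2233 and 2372 of all tested genes, so the background rose far more than the members. At that setting 4 shed substrates were higher and 1 of the other metalloproteases was lower. With a mean of at least 50 counts, 1 of the other metalloproteases was higher. Leaving out each library in turn gave 8 to 10 members lower and 7 to 12 higher, of which 16 or 17 were shared with the 17 calls. Over all tested genes the same fits called 1201 to 1408 lower and 1124 to 1231 higher. They gave 1 to 3 higher partners of ADAM10 and ADAM17.

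Of 27 named and tested members, 337 values under other settings held both direction and call. ADAMTS7 lost its call in 3 settings and TIMP4 in 1, while MMP1 and ADAMTSL4 (log2 fold change 0.39 without control replicate 1) each gained a call in 1. Members gained when a library was left out were among MMP9, ADAM19, MMP15, ADAMTSL4, MMP1 and MMP25. ADAM10, which was not called, changed sign without control replicate 3 (0.0031) and without KO replicate 2 (0.037), within a range of -0.1 to 0.037 over the libraries left out. For 6 pairs of member and setting no value was computed, since the gene was filtered out. The cause was not tested.

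Leaving out the leading member changed the sign of the ADAM, ADAMTS and inhibitor sums but not that of the MMP sum. As the log2 ratio of KO to control, the MMP sum moved from 0.63 to 0.87 without MMP2, the ADAM sum from -0.05 to 0.07 without ADAM9, the ADAMTS sum from -0.26 to 0.36 without ADAMTS12 and the inhibitor sum from 0.05 to -0.13 without TIMP1. In CPM, without the length correction, the ADAMTS sum was -0.35 and the inhibitor sum -0.14. Replicate numbers did not pair the libraries (correlations of deviations -0.04, -0.129 and 0.073). With the number as a replicate block 9 members were lower and 8 higher, against 1351 and 1200 of all tested genes. Depth limits the members under about 50 counts in all libraries together.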
